A study of Mus musculus with 6 samples.

Results

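The Notch ligands, receptors and targets described here were 10 genes: the ligands Jag1, Jag2, Dll1 and Dll4, the receptors Notch1, Notch2 and Notch3, and the target genes Hes1, Hey1 and Heyl. They were chosen as the Notch pathway genes named for the limb bud classes that have a row in both count matrices, and all 10 had one among the 15668 genes the matrices share. The data are single-cell RNA-seq counts of mouse limb buds at stage E11.5, with 24891 cells kept of 26486. There were 6 libraries of 1 group each, so each mutant and its wild type were 1 library against 1. The hindlimb groups were C57BL/6 wild type, Dup, G4 wild type and Inv1, and the forelimb groups were G4 wild type and Inv1.

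Dup embryos, on a C57BL/6 background, carried on both chromosomes a second, tandem copy of a segment with the genes Lbx1, Btrc, Poll, Dpcd and Fbxw4. Inv1 embryos were homozygous for an inversion that breaks Fbxw4 and moves the limb enhancers of Fgf8 away from it. They were on the background of G4, an embryonic stem cell line from a cross of 129sv and C57Bl6, and were compared with G4 wild types. Both lines came from engineered stem cells, and the Dup and Inv1 alleles are constitutive, carried by every cell of the limb bud. The labels do not say how many embryos or litters went into a library, so p-values below measure the spread between these libraries, which may be technical. Values for single libraries are given throughout in the order C57BL/6 wild-type hindlimb, Dup hindlimb, G4 wild-type hindlimb, Inv1 hindlimb, G4 wild-type forelimb and Inv1 forelimb.

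Notch receptors are membrane proteins that are cut when a Jagged or Delta-like ligand on a neighbouring cell binds them. The freed intracellular part enters the nucleus, joins the DNA-binding protein RBPJ and switches on repressor genes of the Hes and Hey families. In embryos the pathway is known for keeping muscle progenitors from differentiating, for choosing tip cells in growing vessels and for the renewal and layering of the epidermis, and Jag2 is known for its part in the apical ectodermal ridge (AER), the strip of ectoderm at the limb tip that keeps the limb growing.

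Depth ranged from 22660212 to 59403104 unique molecular identifiers (UMIs) a library, with a median of 6729 to 10098 UMIs per cell, and 86 of 24805 distinct barcodes occurred in more than 1 library. In the AER the locus itself followed the labels. Fgf8 was at 5453, 3371, 7315, 37.6, 2574 and 10.3 counts-per-million (CPM), near 0 in both Inv1 libraries only, and Lbx1 at 10.2, 173, 0, 197, 13.8 and 194 CPM, high in the Dup and both Inv1 libraries. The AER held 10 to 82 cells a library and the dorso-ventral ectoderm 11 to 95, and the endothelium held 16 to 45, so counting error is large there. The class the study calls keratinocytes held 4 to 39 cells and expressed Krt14, Krt17, Krt5, Sfn and Grhl3. The class it calls neuronal, of 4 to 17 cells, had Foxd3 at 337 CPM, Sox10 at 175 and Erbb3 at 148 over all libraries but the neuronal gene Tubb3 at 19.6 CPM, which goes against the label, and it is named below by Foxd3 and Sox10. Of the smaller C57BL/6 wild-type classes, 3 of 16 AER cells, 1 of 11 dorso-ventral ectoderm cells and 2 of 4 keratinocytes held UMIs of at least 10 of 16 mesenchyme markers. The part of such cells in the results was not tested beyond leaving them out.

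All members are protein-coding genes. In the NCBIM37 assembly behind the authors' mm9 reference, Jag1 (ENSMUSG00000027276) lies on the reverse strand at chr2:136907192-136942380, Jag2 (ENSMUSG00000002799) on the reverse strand at chr12:114146801-114167706, Dll1 (ENSMUSG00000014773) on the reverse strand at chr17:15504318-15513836 and Dll4 (ENSMUSG00000027314) on the forward strand at chr2:119151520-119161698. Notch1 (ENSMUSG00000026923) lies on the reverse strand at chr2:26313423-26372183, Notch2 (ENSMUSG00000027878) on the forward strand at chr3:97817461-97954290 and Notch3 (ENSMUSG00000038146) on the reverse strand at chr17:32257765-32303825. Hes1 (ENSMUSG00000022528) is on the forward strand at chr16:30064470-30067882, Hey1 (ENSMUSG00000040289) on the reverse strand at chr3:8663362-8667039 and Heyl (ENSMUSG00000032744) on the forward strand at chr4:122910799-122927118.

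RefSeq promoter windows of 250 bases before to 50 bases after the start site, in GRCm38.p6, matched 7 of the 10 members, in 8 windows; Hes1, Hey1 and Heyl were not matched. The windows of Jag1 and of the second start site of Dll1 are printed because these ligands showed the steepest differences inside a class, and because they alone held the E-box CAGCTG, a site of the kind bound by basic helix-loop-helix proteins such as the muscle regulators. The motif reads the same on both strands. The Jag1 window is on the reverse strand at chr2:137116471-137116770 and that of Dll1 on the reverse strand at chr17:15376883-15377182, both written 5′ to 3′ with the E-box in capitals.
Jag1: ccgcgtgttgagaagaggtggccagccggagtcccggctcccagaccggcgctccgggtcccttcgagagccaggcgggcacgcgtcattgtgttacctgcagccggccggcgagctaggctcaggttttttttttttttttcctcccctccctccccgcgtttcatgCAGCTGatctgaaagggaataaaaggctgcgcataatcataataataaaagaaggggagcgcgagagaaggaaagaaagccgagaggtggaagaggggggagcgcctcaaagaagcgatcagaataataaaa
Dll1: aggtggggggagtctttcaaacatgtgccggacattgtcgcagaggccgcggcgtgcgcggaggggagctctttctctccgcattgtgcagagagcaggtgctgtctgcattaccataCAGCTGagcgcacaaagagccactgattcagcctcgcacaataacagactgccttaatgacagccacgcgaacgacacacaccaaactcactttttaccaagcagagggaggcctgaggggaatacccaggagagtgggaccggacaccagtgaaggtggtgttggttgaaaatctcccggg

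The E-box was found in 16.3% of all 32851 promoter windows. The RBPJ letters TGGGAA, or TTCCCA on the other strand, were found in 25.6% of all windows and in none of the 8, and the HOX13 letters CAATAAA, or TTTATTG, in 4.6% and in none of the 8. The motifs were chosen after earlier results of these data were known, and a match is a description of letters in the window.

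The 4 ligands were highest in different classes, but Jag1 and Jag2 were both found in the AER. Jag2 was highest in the ectoderm, Dll1 in muscle, Dll4 in endothelium and Jag1 in keratinocytes and distal mesenchyme. Levels are UMIs of a gene over the UMIs of its class, in CPM. Reads were counted at the 3′ end as molecules, with no scaling to gene length. The classes were made by clustering the same cells, so class differences are described by how many libraries showed them and carry no test.

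Jag2 stood at 45.8, 44.8, 100, 125, 96.4 and 119 CPM in the AER. In the dorso-ventral ectoderm, the surface layer around the ridge, Jag2 stood at 80.9, 41.1, 60.6, 63.9, 150 and 86.1 CPM. The AER was above the dorso-ventral ectoderm in 4 of 6 libraries and the ranges overlapped, so Jag2 marked both ectodermal classes and not the ridge alone. Both lay above the endothelium, at 9.58 to 30.8 CPM, in 6 of 6 libraries without overlap. In keratinocytes Jag2 was at 0 in 4 of 6 libraries and at most 7.7 CPM, and in mesenchyme at 0.419 to 1.71 CPM. After thinning each cell to 4000 UMIs, 12.5 to 41% of AER cells held a Jag2 UMI, against 0.2 to 0.591% of mesenchyme cells, a share at which free RNA in the droplets may account for the UMIs.

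Jag1, the ligand whose loss is known to disturb vessels and the inner ear, was highest in keratinocytes, at 68.1, 116, 116, 142, 147 and 149 CPM. The 4 keratinocytes of the C57BL/6 wild type gave the lowest value. The mesenchyme held 92.5% of all Jag1 UMIs, at 35, 46.7, 29.2, 32.7, 50.8 and 32 CPM. Values in the AER ran from 19.2 to 55.1 CPM, above the mesenchyme in 4 of 6 libraries with overlapping ranges. The class with Foxd3 and Sox10 ran from 17.4 to 133 CPM and the dorso-ventral ectoderm from 5.4 to 41.4 CPM. Muscle cells were low, at 5.23 to 9.42 CPM, below the endothelium at 10.5 to 21.9 CPM in all 6 libraries without overlap.

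Dll1, the ligand that muscle precursors need to stay in reserve, had 79.5% of its UMIs in muscle, at 12.4, 15, 14.3, 16.4, 30.2 and 22 CPM. The forelimb libraries were the highest, and all 6 lay above the next class, the dorso-ventral ectoderm at 0 to 10.8 CPM, without overlap. Dll1 in the AER was at 0 in 3 libraries and at 15.1, 13.8 and 10.3 CPM in the Inv1 hindlimb and the forelimbs, from 15 UMIs in all. Thinned to 4000 UMIs, 1.52 to 8.93% of muscle cells held a Dll1 UMI, against 0 to 0.2% of mesenchyme cells.

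Dll4, the ligand of vessel tip cells, had 88.8% of its UMIs in the endothelium, at 27.3, 33.5, 33, 43.7, 60.3 and 89.5 CPM. No UMI of Dll4 was counted in the AER, the dorso-ventral ectoderm, keratinocytes or the class with Foxd3 and Sox10, and the mesenchyme stood at 0.0583 to 0.157 CPM. The lowest endothelial library lay above the highest value of every other class.

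**Figure D1:**
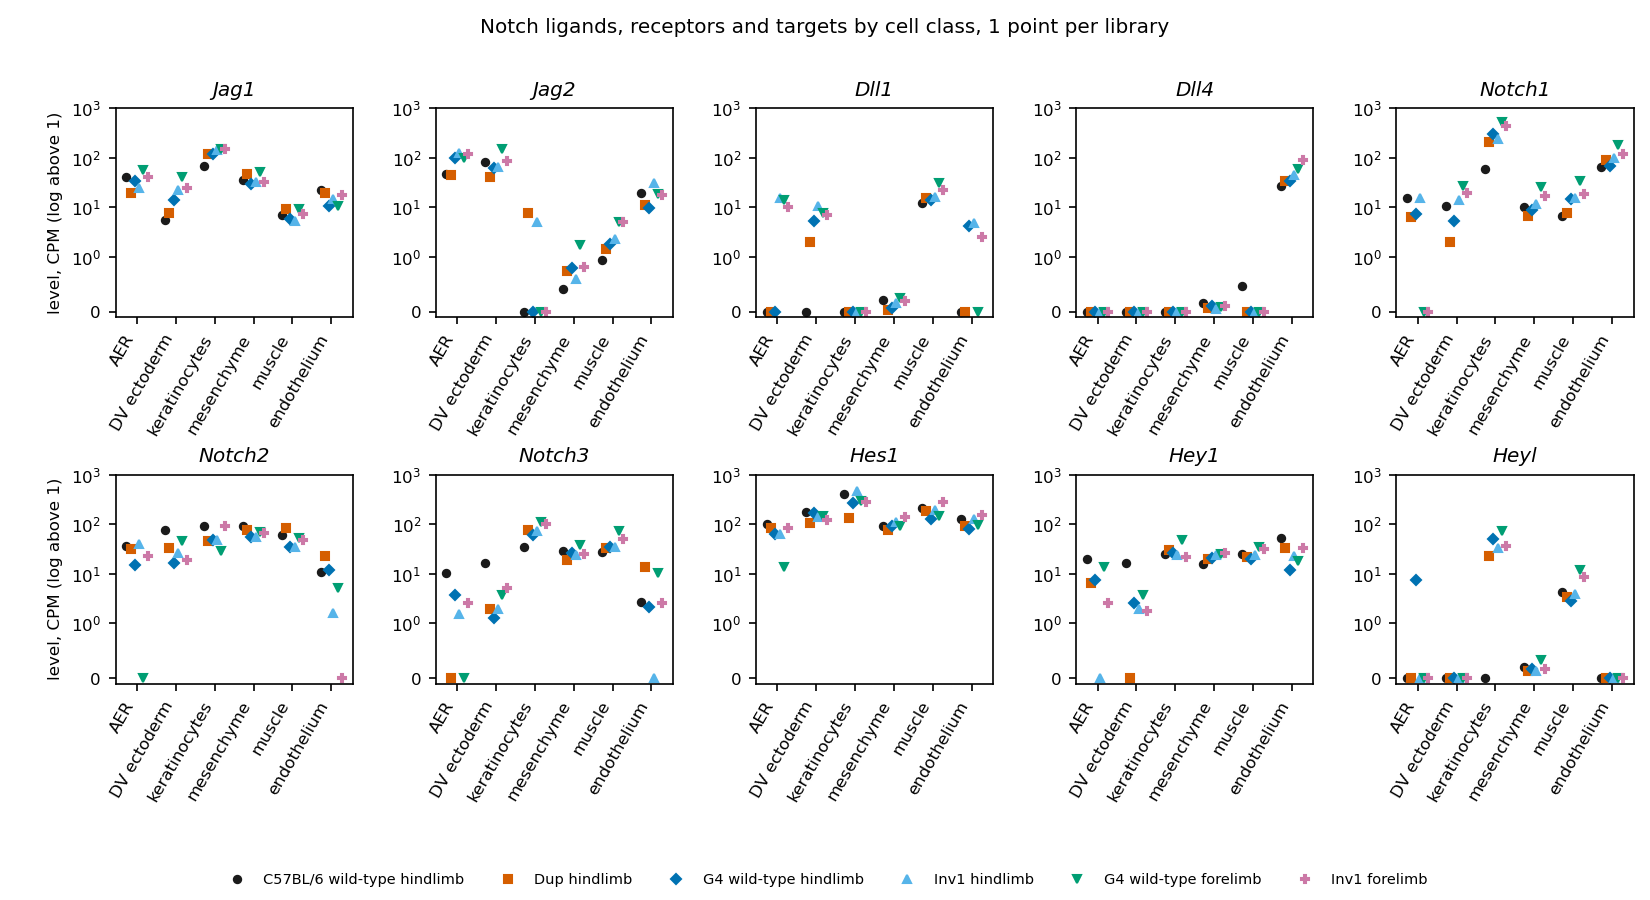
Level of each of the 10 members, in CPM on an axis that is logarithmic above 1, in 6 of the 8 cell classes; each point is 1 of 6 libraries. Dll4 stands in the endothelium at 27.3 to 89.5 CPM with 0 in the AER, and Jag2 overlaps between the AER and the dorso-ventral ectoderm.

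Among the receptors, Notch1 was highest in keratinocytes and endothelium, Notch2 and Notch3 were spread over mesenchyme and muscle, and all 3 were at or next to the bottom of their class order in the AER. Notch1 stood at 59.6, 208, 298, 241, 526 and 427 CPM in keratinocytes and at 65.6, 89.2, 69.2, 98.7, 176 and 119 CPM in endothelium. Keratinocytes were above endothelium in 5 of 6 libraries, the exception being the C57BL/6 wild type with its 4 keratinocytes. The endothelium was above the class with Foxd3 and Sox10, the next in order at 10.2 to 61.6 CPM, in 6 of 6 libraries without overlap. Mesenchyme held 65.7% of the Notch1 UMIs through its number of cells, at 10.2, 6.66, 8.75, 11.8, 25.7 and 16.5 CPM.

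Notch2 stood at 92.5, 77.8, 55.1, 55.5, 70.5 and 67.7 CPM in mesenchyme and at 61.3, 82.2, 34.5, 34.8, 52.5 and 49 CPM in muscle. The endothelium was the lowest class for Notch2, at 10.9, 22.3, 11.7, 1.62, 5.25 and 0 CPM from 26 UMIs, below the range of mesenchyme and of muscle. Notch1 and Notch2 therefore ran in opposite order between endothelium and mesenchyme, in each library.

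Notch3, known from the muscle wall of vessels and from satellite cells, stood at 34.1, 77, 59.6, 73.7, 110 and 101 CPM in keratinocytes. Muscle followed at 27.1, 32.4, 34.3, 33.9, 72.8 and 51.3 CPM, and mesenchyme at 28.7, 18.6, 25.8, 24.2, 37.3 and 24.5 CPM. Neighbouring ranges overlapped, with keratinocytes above muscle in 6 of 6 libraries. The AER, the endothelium and the dorso-ventral ectoderm held 5, 14 and 11 Notch3 UMIs.

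Of the targets, Hes1 was found in every class of each library, Hey1 in most but low in the AER and the dorso-ventral ectoderm, and Heyl was sparse. Hes1, a repressor that many other signals also induce, stood at 400, 135, 268, 462, 290 and 276 CPM in keratinocytes and 208, 182, 126, 189, 148 and 276 CPM in muscle. It stood at 92.6, 77.6, 91.6, 110, 92.7 and 137 CPM in mesenchyme and at 80.9 to 156 CPM in endothelium, and all neighbours in its order overlapped. Hey1, a repressor known from arteries and the heart, stood at 51.9, 33.5, 11.7, 22.7, 18.4 and 32.8 CPM in endothelium, 24.7, 22.2, 19.7, 24.4, 35.2 and 31.6 CPM in muscle and 16, 20.1, 21.1, 24.2, 24.8 and 26.6 CPM in mesenchyme. Hey1 in keratinocytes stood at 25.5, 30.8, 26.8, 23.5, 48.9 and 21.5 CPM. These ranges overlapped, while the AER and the dorso-ventral ectoderm had medians of 6.91 and 2.27 CPM. Heyl was the sparsest target, at 29.8 to 82.1 CPM in the class with Foxd3 and Sox10, from 47 UMIs. In keratinocytes Heyl stood at 0, 23.1, 50.6, 33.5, 73.4 and 36.6 CPM and in muscle at 4.28, 3.38, 2.85, 3.87, 11.9 and 8.66 CPM, and it was at 0 in endothelium and dorso-ventral ectoderm.

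The 35 other pathway genes were highest in different classes, 8 in mesenchyme, 7 in the AER, 6 in keratinocytes, 4 in endothelium and 3 in muscle. The 4 given here were chosen after their values were seen. Nrarp, an inhibitor that Notch signalling itself induces, stood at 93.6, 374, 456, 563, 608 and 636 CPM in keratinocytes and at 112, 112, 92.6, 133, 152 and 252 CPM in endothelium. Mfng, a glycosyltransferase that modifies Notch receptors, stood at 125 to 148 CPM in endothelium, and the receptor Notch4 there at 30.7 to 43.7 CPM, both above every library of the next class. Hes6, a family member known to promote differentiation, was highest in muscle, at 239 to 343 CPM. The classes in which Notch1 and Nrarp were highest, keratinocytes and endothelium, were therefore the same for both genes.

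The muscle class was next divided by Myog, a regulator of muscle differentiation that is no member. Dll1 rose steeply in cells that had begun to differentiate, and Hey1 fell. Cells with a Myog UMI were compared with those without, as sums per library tested over all genes with edgeR. At an adjusted p under 0.05, 2135 of 8355 genes tested changed, or 25.6%. Of the 10 members 6 passed the filter on low counts, and 1 rose and 1 fell.

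Dll1 stood at 32.9, 34, 43.1, 41, 62.5 and 45.2 CPM in cells with a Myog UMI and at 5.14, 4.5, 2.9, 2.16, 1.86 and 1.87 CPM in those without. Every library with Myog lay above every library without. On the log2 scale Dll1 rose by 3.85 ± 0.23 (SE), with an adjusted p of 5.78e-14 (edgeR) and a higher value in 6 of 6 libraries. Of the 311 muscle UMIs of Dll1, 278 were in cells with a Myog UMI. Dll1 passed the filter on low counts only through the cells with a Myog UMI, where it is high. Its p-value is therefore a description, and the levels per library carry the result.

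Hey1 stood at 16.4, 17.7, 18.3, 11.8, 15.9 and 12.9 CPM with Myog and at 27.6, 24.8, 20.3, 31.6, 52.2 and 47.9 CPM without. The groups did not overlap, though the G4 wild-type hindlimb differed by little. Hey1 fell by 1.12 ± 0.19 on the log2 scale (adjusted p = 5.67e-05), in 6 of 6 libraries.

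Receptors and Hes1 passed no threshold in muscle. Notch1 differed by 0.31 ± 0.19 on the log2 scale (adjusted p = 0.257), Notch2 by 0.17 ± 0.11 (0.303), Notch3 by -0.25 ± 0.14 (0.195) and Hes1 by -0.12 ± 0.08 (0.318). Jag1, Jag2, Dll4 and Heyl were too low for the filter, with 27 and 93, 37 and 10, 1 and 0, and 33 and 61 UMIs with and without Myog. With no filter Jag2 differed by 2.43 ± 0.53 (adjusted p = 8.34e-05) and Jag1 by -1.01 ± 0.32 (adjusted p = 0.0113), on these few UMIs. The median log2 difference was 0.03 over the members tested and -0.02 over all genes. Of 22 other pathway genes tested, 4 passed, all of them higher with Myog. These were Hes6 (1.31 ± 0.08, adjusted p = 3.07e-14), the DNA-binding partner Rbpj (1.07 ± 0.09, 3.40e-10), the ubiquitin ligase Neurl1a that acts on ligands (2.30 ± 0.27, 1.23e-07) and the ligand-like Dlk1 (2.97 ± 0.33, 4.43e-08), the last higher in 4 of 6 libraries.

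**Figure D2:**
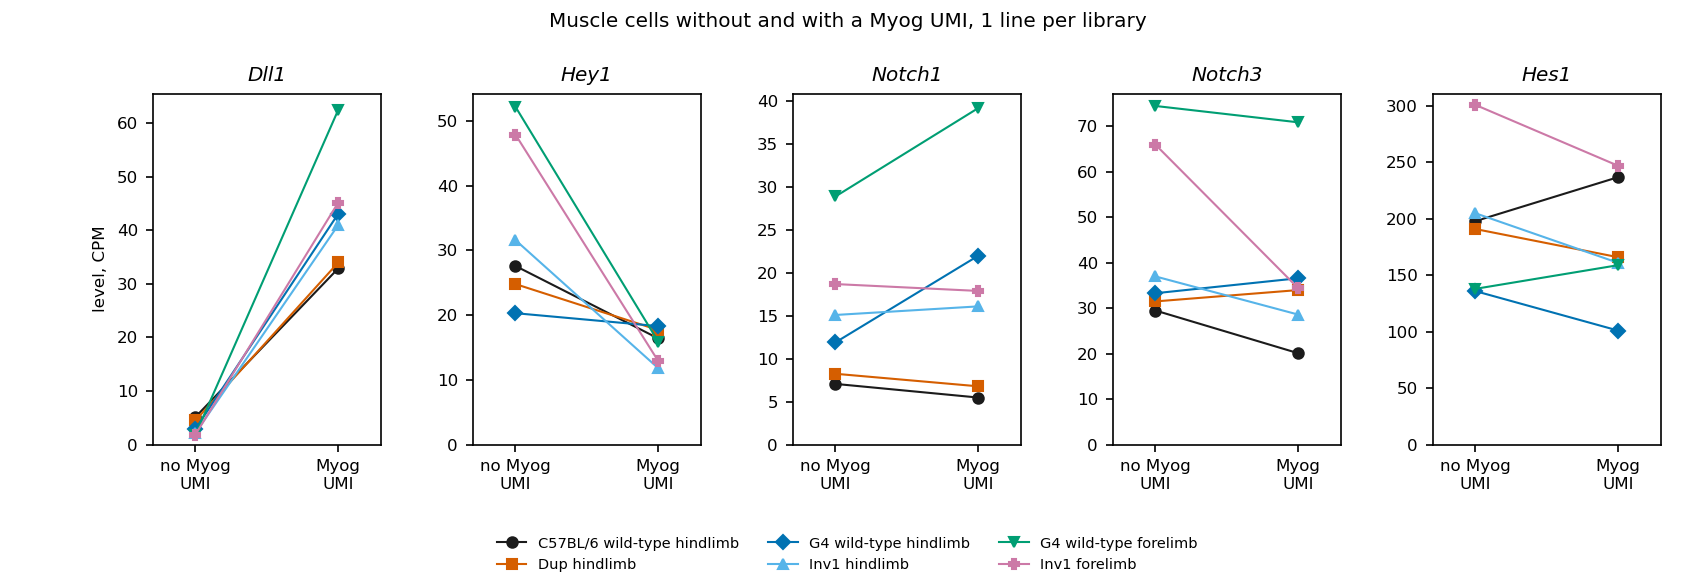
Levels in CPM of members in muscle cells with and without a Myog UMI, with a line for each of 6 libraries. Dll1 rises from 1.86 to 5.14 CPM up to 32.9 to 62.5 CPM, and Hey1 falls in all 6 libraries.

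Along the length of the limb, Jag1 and Hey1 were both distal genes of the mesenchyme. Distal cells were those with a UMI of Hoxa13 or Hoxd13 and none of Meis1 or Meis2, and proximal cells the reverse. Of 12044 genes tested 5111, or 42.4%, changed at an adjusted p under 0.05, so a call by itself is common here. Of the 6 members that passed the filter 3 were higher and 2 lower in distal cells.

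Jag1 stood at 91.9, 72.7, 52, 44.7, 66.6 and 37.2 CPM in distal and at 5.02, 7.25, 4.26, 3.38, 12.6 and 5.68 CPM in proximal cells. All distal values lay above all proximal ones, and on the distal side each of the 3 mutant libraries lay below its own wild type. Over the whole mesenchyme, in contrast, Jag1 was 1.34 times its wild type in Dup (1.22 to 1.47), 1.12 times in the Inv1 hindlimb and 0.629 times in the Inv1 forelimb. Jag1 was higher in distal cells by 3.64 ± 0.13 on the log2 scale (adjusted p = 2.55e-11), in 6 of 6 libraries.

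Hey1 stood at 39.9, 30, 36.2, 30.4, 28.9 and 28.3 CPM in distal and at 3.84, 4.11, 1.92, 4.01, 0 and 7.1 CPM in proximal cells. The groups did not overlap. The log2 difference was 3.43 ± 0.18 with an adjusted p of 9.96e-10, higher in 6 of 6 libraries. Proximal cells were few in the forelimbs, 114 and 68, and in the 4 hindlimb libraries alone, an alternative added after the data were seen, 5126 genes and 4 members were called, with Jag1 and Hey1 among them.

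Hes1 stood at 112, 84.2, 128, 125, 104 and 144 CPM in distal and at 89.1, 97.6, 75.5, 99.9, 60.8 and 102 CPM in proximal cells. The Dup library alone ran the other way. The log2 difference was 0.40 ± 0.09 (adjusted p = 0.00235), higher in 5 of 6 libraries.

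The receptors leaned to the proximal side, by less. Notch2 stood at 70.3, 62.4, 42.5, 47.8, 61.5 and 61.4 CPM in distal and 96.9, 87.2, 68.2, 66.1, 89.4 and 85.2 CPM in proximal cells, lower in 6 of 6 libraries, with a log2 difference of -0.49 ± 0.06 (adjusted p = 4.38e-06). Notch1 differed by -0.35 ± 0.12 (adjusted p = 0.035), a call lost without any 1 of 4 libraries: -0.24 (0.126) without the G4 wild-type forelimb, -0.32 (0.0973) without Dup, -0.37 (0.0686) without the G4 wild-type hindlimb and -0.38 (0.0558) without the Inv1 hindlimb. Notch3 differed by -0.18 ± 0.08 (adjusted p = 0.0722). Jag2, Dll1, Dll4 and Heyl were below the filter, with 86 and 21, 16 and 5, 14 and 1, and 23 and 4 UMIs in distal and proximal cells. The median log2 difference was 0.11 over the members tested and -0.01 over all genes.

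Of 30 other pathway genes tested along this axis, 1 was higher and 6 were lower in distal cells. Nrarp was higher (log2 difference 1.69 ± 0.29, adjusted p = 0.00023), in the same direction as Jag1, Hey1 and Hes1. Dlk1 (-2.16 ± 0.10, adjusted p = 3.56e-10) and the coactivator Maml2 (-1.42 ± 0.19, 2.78e-05) were lower, and Pofut1, Numbl, Dtx3 and Psenen were lower by 0.17 to 0.32 on the log2 scale. Distal cells were also deeper, with a median of 7194 to 10557 UMIs per cell against 6114 to 8624, and thinning to 4000 UMIs kept the calls of Jag1, Hey1, Hes1 and Notch2.

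The authors' finer mesenchyme classes were made by clustering the same cells, so they are no independent check. For the C57BL/6 wild type and Dup hindlimbs they gave the same distal over proximal order of Jag1 and Hey1. In these 2 libraries Jag1 stood at 177 and 163 CPM in autopod chondrocyte progenitors, the forming cartilage of the hand and foot plate, at 86.6 and 61.1 CPM in autopod mesenchyme and at 23.1 and 39.9 CPM in zeugopod mesenchyme. Stylopod mesenchyme, stylopod chondrocyte progenitors and muscle connective tissue held Jag1 at 4.76 to 7.66 CPM. Hey1 was highest in autopod mesenchyme instead, at 51.2 and 34.6 CPM, with 22.6 and 31.1 CPM in autopod chondrocyte progenitors and 2.16 to 4.94 CPM in the stylopod and connective tissue classes. Notch1 was at 20.7 and 11.9 CPM in autopod chondrocyte progenitors against 5.39 and 4.35 CPM in autopod mesenchyme.

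**Figure D3:**
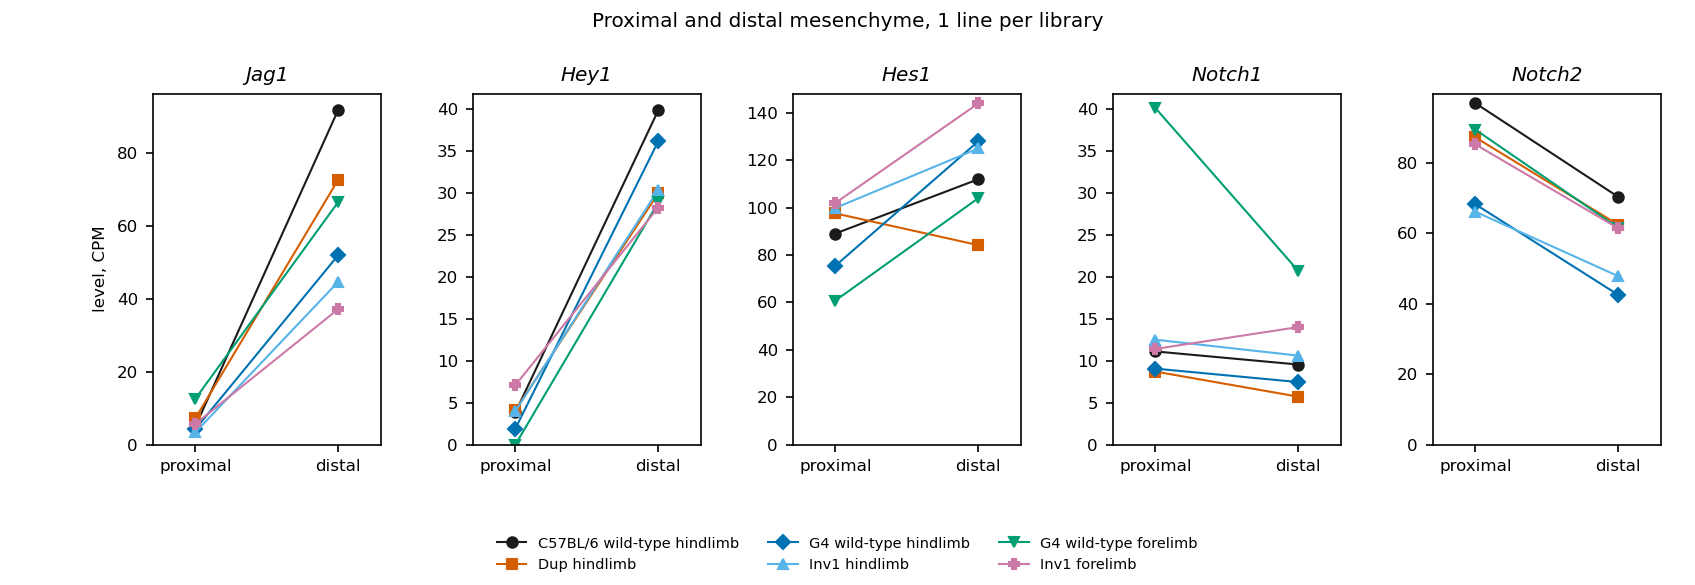
Levels in CPM of members in distal and proximal mesenchyme cells, with a line for each of 6 libraries. Jag1 reaches 37.2 to 91.9 CPM in distal cells against 3.38 to 12.6 CPM in proximal ones, and Notch2 runs the other way in all 6.

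Within the mesenchyme, cells with a UMI of Sox9, the regulator of cartilage formation, held more Jag1, Notch1 and Notch2 and less Hey1 than cells without. Of 13194 genes tested 5394, or 40.9%, changed, and of 7 members that passed the filter 3 rose and 1 fell. Jag1 stood at 36.8, 62.7, 37, 45.4, 63.3 and 36.7 CPM with Sox9 and at 31, 33.9, 22.3, 21.8, 33.4 and 28 CPM without. The groups did not overlap. The log2 difference was 0.69 ± 0.07 with an adjusted p of 7.18e-07, higher in 6 of 6 libraries.

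Notch1 stood at 12.3, 9.34, 12.1, 15.8, 30.8 and 19.2 CPM with Sox9 and at 5.78, 4.53, 5.83, 8.36, 18.5 and 14.2 CPM without. It was higher with Sox9 in each library, while the groups overlapped because the forelimb libraries were high in both states. The log2 difference was 0.77 ± 0.08 (adjusted p = 4.45e-07), and that of Notch2 0.31 ± 0.04 (adjusted p = 3.39e-06), higher in 6 of 6 libraries.

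Hey1 stood at 12.9, 16.4, 15.3, 16.3, 21.2 and 18.9 CPM with Sox9 and at 22.6, 23, 26.1, 31, 29.8 and 33 CPM without. Without overlap between the groups, Hey1 fell by 0.78 ± 0.06 on the log2 scale (adjusted p = 6.52e-09), in 6 of 6 libraries. Hey1 and Jag1, both higher in distal cells, thus moved in opposite directions with Sox9.

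Notch3 differed by 0.13 ± 0.05 (adjusted p = 0.0583), Hes1 by 0.05 ± 0.03 (0.246) and Jag2 by -0.17 ± 0.22 (0.579). Dll1, Dll4 and Heyl were below the filter, with 16 and 14, 9 and 10, and 20 and 18 UMIs with and without Sox9. The median log2 difference was 0.13 over the members tested and 0.00 over all genes. Of 33 other pathway genes tested 7 rose and 6 fell. The largest rises were Maml2 (0.74 ± 0.10, adjusted p = 1.58e-05) and the ubiquitin ligase Dtx1 (0.57 ± 0.14, 0.00417), with Nrarp at 0.48 ± 0.17 (0.0338), and Dtx3, Numb, Adam10 and Rbpj rose by 0.09 to 0.17. Hey2, a close relative of Hey1, fell by 0.92 ± 0.17 (adjusted p = 0.000268), as did Dlk1 by 0.92 ± 0.05 (5.53e-10), and Dtx4, Hes6, Dtx2 and Aph1a fell by 0.14 to 0.58. Scaled by total counts alone, 3588 genes rose and 2039 fell in place of 2473 and 2921, 5 members rose and 1 fell, and 11 other pathway genes rose and 4 fell.

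The split was repeated in distal mesenchyme cells alone, an alternative added after the data were seen. Jag1 again rose with Sox9, by 0.76 ± 0.06 (adjusted p = 1.16e-09), Notch1 by 1.24 ± 0.12 (1.66e-08) and Notch2 by 0.30 ± 0.05 (1.62e-05), and Hey1 fell by 0.73 ± 0.07 (7.43e-09). There Notch3, at 0.18 ± 0.06 (0.0173), and Hes1, at 0.11 ± 0.04 (0.0376), also passed, so that all 6 members tested were called, beside 4869 of 12198 genes, or 39.9%. Sox9 cells were not deeper as a rule, with a median of 6444 to 9421 UMIs per cell against 6740 to 10144 without.

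**Figure D4:**
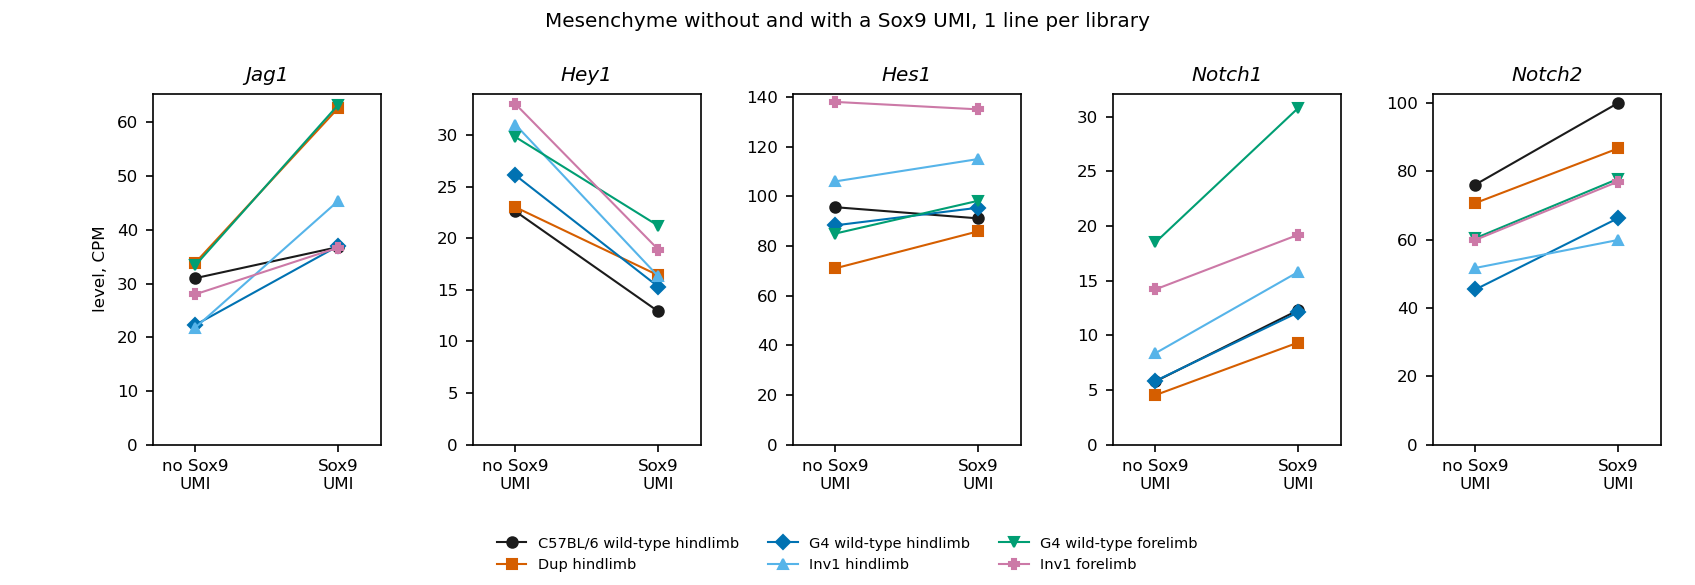
Levels in CPM of members in mesenchyme cells with and without a Sox9 UMI, with a line for each of 6 libraries. Jag1 and Notch1 are higher with Sox9 and Hey1 is lower, in all 6 libraries.

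Each mutant library was then compared with the wild type of its background and limb. Genotype and library cannot be told apart in these comparisons. With 1 library per group these are ratios of CPM with an exact 95% interval that covers counting error only, and the ratios carry no test of genotype. A gene with 10 or more UMIs over the pair was measured, and it was called where the ratio was 1.5 or more either way and the interval left out 1. Genes called among all measured serve as the background.

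In the AER, Lbx1 was high in all 3 mutant libraries and Fgf8 near 0 in the Inv1 ones only, and few members passed. In Dup 0 of 4 members measured were called, beside 8.34% of all genes, and in the Inv1 hindlimb 0 of 6, beside 6.06%. Jag2 in the AER was 0.978 times its wild type in Dup (0.31 to 2.95), 1.25 times in the Inv1 hindlimb (0.798 to 2) and 1.23 times in the Inv1 forelimb (0.553 to 3.24), intervals that include 1 and reach 2 or more. In the Inv1 forelimb 1 of 3 members was called, beside 7.2% of genes. This was Hes1, at 6 times (1 to 244) from 32 UMIs against 1 UMI in 10 wild-type cells. It reversed to 0.539 times when cells were chosen by AER markers other than Fgf8 instead of the deposited class.

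In the dorso-ventral ectoderm, 2 of 3 members were called in Dup, beside 6.44% of genes. Notch2 was 0.44 times (0.204 to 0.964) and Hes1 0.593 times (0.378 to 0.944) its wild type, which held 11 cells. Both calls were lost without the 1 wild-type and 1 Dup cell that held mesenchyme markers, at 0.646 and 0.608 times, while Jag2, at 0.507 times (0.249 to 1.06) with all cells, became called. In the Inv1 hindlimb 0 of 6 were called, beside 5.39%. In the Inv1 forelimb 1 of 5 was called, beside 9.74%: Jag2 fell from 150 to 86.1 CPM, at 0.572 times (0.369 to 0.892), and the wild-type forelimb value was itself 2.48 times that of the wild-type hindlimb (1.59 to 3.87).

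In mesenchyme, the deepest class, 2 of 7 members were called in Dup, beside 7.6% of genes. Notch1 fell from 10.2 to 6.66 CPM, 0.653 times (0.534 to 0.799), and Notch3 from 28.7 to 18.6 CPM, 0.648 times (0.575 to 0.729). The Dup library also had Fos at 184 CPM and Jun at 476 CPM, early response genes that stood at 39.1 to 140 and 146 to 248 CPM in the other libraries, and the part of this in the result was not tested. The makeup of the mesenchyme moved as well: autopod mesenchyme was 326 of 2025 wild-type cells and 1468 of 4253 Dup cells, and stylopod mesenchyme 688 and 776. Within autopod, zeugopod and stylopod mesenchyme, Notch1 went from 5.39 to 4.35, from 9.81 to 8.37 and from 9.57 to 7.31 CPM. Notch3 went from 22.8 to 17.4, from 29.9 to 17.4 and from 31.3 to 22.7 CPM. The remaining fine classes were autopod chondrocyte progenitors, stylopod chondrocyte progenitors and muscle connective tissue, with 7 to 41 UMIs per gene and library. There Notch1 went from 20.7 to 11.9, from 19.9 to 8.33 and from 9.35 to 5.41 CPM. Notch3 there went from 27.5 to 23.2, from 28.3 to 19 and from 27.1 to 16.8 CPM. The part of the makeup in the 2 calls was not tested further. The call of Notch3 was lost, at 0.835 times, among cells with over 3000 detected genes. In the Inv1 hindlimb 0 of 9 members were called, beside 5.95%, with Jag1 at 1.12 times (1.05 to 1.2) and Notch1 at 1.35 times (1.19 to 1.53) the wild type.

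In the Inv1 forelimb mesenchyme 4 of 9 members were called, all lower, beside 13.6% of genes. Jag1 fell from 50.8 to 32 CPM, 0.629 times (0.58 to 0.683), and Jag2 was 0.474 times (0.284 to 0.784), Notch1 0.642 times (0.572 to 0.721) and Notch3 0.656 times (0.597 to 0.722) the wild type. Jag2 stood at only 0.419 to 1.71 CPM in the mesenchyme of the libraries, a level at which free RNA may account for the UMIs. In the dorso-ventral ectoderm of this pair Jag2 was lower as well. The part of free RNA in the Jag2 call was not tested. Under scaling by the median of ratios Notch3 was at 0.669 times and no longer called. The median log2 ratio was -0.61 over the members and -0.18 over all genes. The G4 wild-type forelimb stood apart from the other wild types. Against the G4 wild-type hindlimb it had Jag1 at 1.74 times, Jag2 at 2.16 times and Notch1 at 2.94 times, with a median log2 ratio over all genes of 0.39. Limb and library cannot be told apart here. Over the whole mesenchyme of the Inv1 hindlimb Jag1 and Notch1 ran the other way. In distal cells alone, however, Jag1 was below the wild type in both Inv1 limbs. The makeup differed too, with 3220 distal and 514 proximal cells in the Inv1 hindlimb against 2215 and 1046 in its wild type. In the forelimb these were 2387 and 68 against 1596 and 114. The part of the makeup in these ratios was not tested.

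In muscle, 0 of 8 members were called in Dup, beside 5.68% of genes, and 0 of 9 in the Inv1 hindlimb, beside 5.62%. In the Inv1 forelimb 2 of 9 were called, beside 18%. Hes1 rose from 148 to 276 CPM, 1.87 times (1.64 to 2.14), and Notch1 fell from 33.7 to 18.3 CPM, 0.544 times (0.374 to 0.787). Dll1 in muscle was 1.21 times (0.697 to 2.13) in Dup, 1.15 times (0.797 to 1.66) in the Inv1 hindlimb and 0.727 times (0.506 to 1.05) in the Inv1 forelimb, where it was called once cells with mesenchyme markers were left out. In endothelium only the Inv1 hindlimb pair had 30 cells on each side, and 3 of 7 members were called, beside 6.65%. Jag2 was 3.21 times (1.38 to 8.06) on 19 against 9 UMIs, Hes1 1.58 times (1.14 to 2.2), and Notch2 0.138 times (0.00321 to 0.951) on 1 against 11 UMIs.

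Hes1, singled out after its values were seen, was above the wild type in muscle, mesenchyme and endothelium of both Inv1 limbs, each class taken as a whole. In muscle it was 1.5 times the wild type in the Inv1 hindlimb (1.34 to 1.68), just under the limit, and 1.87 times in the forelimb, and in mesenchyme 1.2 times (1.16 to 1.25) and 1.47 times (1.4 to 1.55). In endothelium it was 1.58 times in the hindlimb, and 1.61 times (1.11 to 2.39) in the forelimb, where the wild type held 16 cells. It was called in hindlimb muscle once cells with mesenchyme markers were left out, and in forelimb mesenchyme under scaling by the median of ratios. In the dorso-ventral ectoderm it was 0.845 times (0.662 to 1.08) and 0.836 times (0.554 to 1.28). In the hindlimb AER Hes1 was 1 times the wild type (0.558 to 1.88), and in keratinocytes 1.73 times (1.36 to 2.21) in the hindlimb and 0.953 times (0.707 to 1.29) in the forelimb. Between wild types, Hes1 in G4 hindlimb muscle was at 0.606 times the C57BL/6 level (0.531 to 0.691) and in mesenchyme at 0.99 times (0.937 to 1.05). The early response genes Egr1 and Ier2 also stood higher over the whole Inv1 libraries, Egr1 at 48.6 against 18.5 CPM in the hindlimb and 153 against 58.8 CPM in the forelimb, and Ier2 at 340 against 278 and 413 against 233 CPM. Their part in the result was not tested.

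The Inv1 and G4 wild-type libraries were also fitted together over both limbs, an alternative added after the data were seen. Genotype was tested with edgeR over 4 libraries with limb as a replicate block. This leaves 1 residual degree of freedom, so the spread is largely borrowed from other genes. Forelimb and hindlimb are different tissues, and the labels do not say whether they came from the same embryos. The limbs of a genotype may therefore not be independent replicates. In mesenchyme 234 of 14579 genes, or 1.61%, and 0 of 7 members tested passed an adjusted p of 0.05, and in muscle 88 of 10540, or 0.835%, and 0 of 9 members. At an unadjusted p under 0.05 only Hes1 passed among the members, in both classes. Hes1 differed by 0.47 ± 0.22 on the log2 scale in mesenchyme (adjusted p = 0.616, edgeR) and by 0.81 ± 0.25 in muscle (adjusted p = 0.0958, edgeR), higher with Inv1 in both limbs. Over both limbs Jag1 differed by -0.19 ± 0.19, Notch1 by -0.05 ± 0.18 and Notch3 by -0.29 ± 0.18 in mesenchyme. Of the other pathway genes, 0 of 34 in mesenchyme and 1 of 29 in muscle passed. That 1 was Dlk1 in muscle, by 2.39 ± 0.29 (adjusted p = 1.66e-13, edgeR), a call lost with no replicate block (2.73, adjusted p = 0.188). The rise of Dlk1 was far larger in the forelimb than in the hindlimb, as given below, and the SE of 0.29 does not reflect that gap.

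Other genes of the pathway were called in 0 to 6 instances per class and pair of those measured. In Dup, 12, 16, 34 and 30 were measured in AER, dorso-ventral ectoderm, mesenchyme and muscle, beside 8.34%, 6.44%, 7.6% and 5.68% of all genes called. Dlk1 passed in the AER (4.28 times, 1.51 to 14.8), Hes6 was lower and Dtx2 higher in dorso-ventral ectoderm, Mfng lower in mesenchyme, and in muscle Nrarp (2.24 times, 1.02 to 5.29) and the secretase subunit Psen2 were higher and the protease Adam10 lower. In the Inv1 hindlimb AER 5 of 20 passed, all higher: Dlk1, Rbpj (1.98 times, 1.14 to 3.62), Dtx2, Aph1a and the ubiquitin ligase Mib1. Of all genes 6.06% were called there, 252 higher and 219 lower. Hey2 was higher in its mesenchyme, of 34 measured and beside 5.95% of all genes. Dlk1, Dner and Dtx3 were higher and Numbl lower in its muscle, of 31 and beside 5.62%. In the Inv1 forelimb, Aph1a was higher and Pofut1 and Itch lower in dorso-ventral ectoderm, of 16 and beside 9.74%.

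In Inv1 forelimb mesenchyme 6 of 34 other pathway genes passed, all lower: Dner, Nrarp, Maml2, Psen2, Mib1 and Pofut1, at 0.465 to 0.666 times. Of all genes 13.6% were called there, and 1624 of those 1994 were lower. In its muscle, of 31 measured and beside 18% of all genes, Dner, Adam17 and Mib1 were lower, at 0.494 to 0.529 times, and Dlk1 was higher, at 125 against 7.93 CPM, 15.8 times (9.6 to 27.9). Dlk1, an imprinted gene, was also higher in Inv1 hindlimb muscle (2.1 times, 1.53 to 2.92) and endothelium (5.07 times, 1.31 to 28.7).

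**Figure D5:**
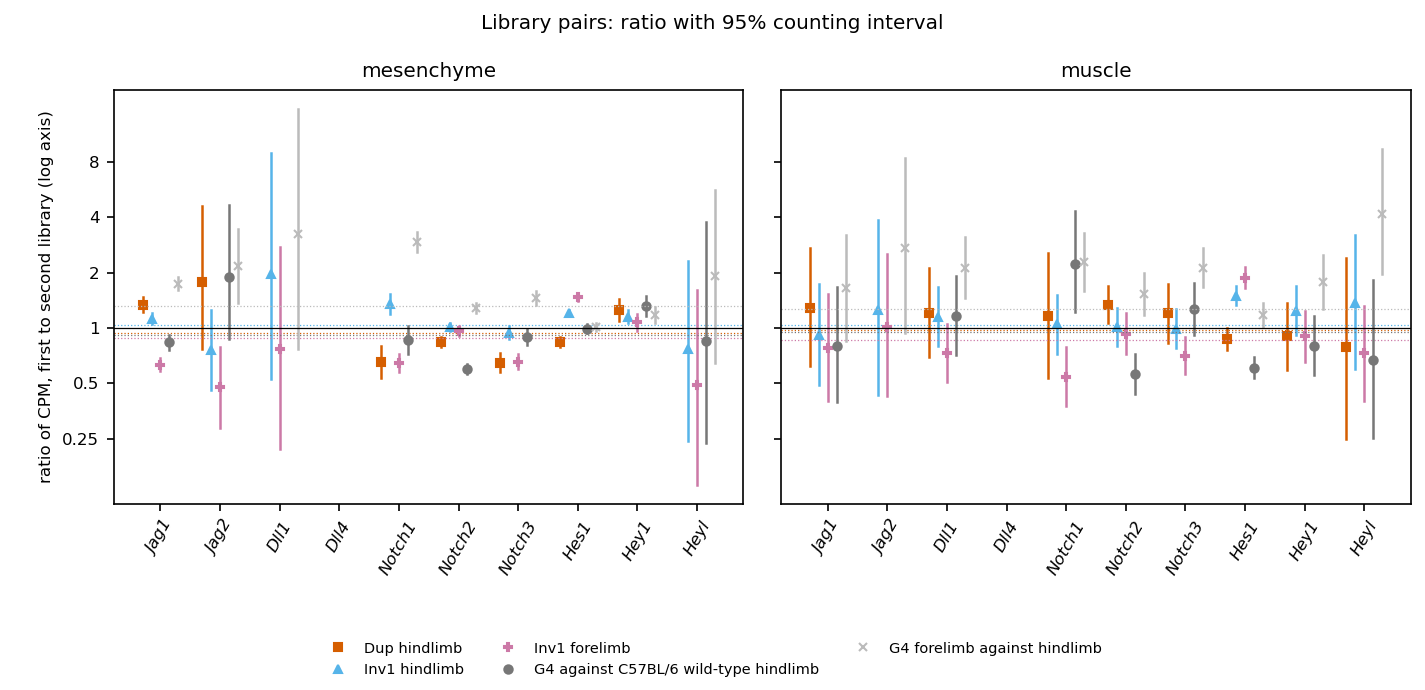
Ratio of CPM for each member measured in mesenchyme and in muscle, on a log axis with exact 95% intervals for counting error. The ratios are of each mutant over its wild type, and also between wild types of different background or limb. In Inv1 forelimb mesenchyme Jag1, Jag2, Notch1 and Notch3 lie below 1, and Hes1 lies above 1 in muscle.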

How the data were processed

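The 6 libraries of E11.5 limb buds, 1 per group, were made with droplets and counted at the 3′ end, and limb, genotype and strain labels gave the groups. The files deposited by the authors hold UMI counts, not normalized, for genes and cells from Cell Ranger version 3 with their own mm9 reference (the processing notes also name mm10). The authors removed doublets with Scrublet, integrated the libraries with Seurat and named the classes that were used here. The matrices hold 0 mitochondrial rows, so no such limit was applied, and 17 columns of values were not used. Cells with over 2000 detected genes were kept, which left 10 to 5384 cells in the classes compared, and precision is limited by these numbers.

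UMIs were summed per library and class and scaled to CPM over 15668 shared genes. Exact Poisson, Clopper-Pearson and conditional binomial intervals at 95% cover counting error only. Cells within muscle or mesenchyme were split by marker UMIs and their sums were tested with edgeR 4.0.16 in R 4.3.3 (quasi-likelihood test, TMM, filterByExpr, library as a block, Benjamini-Hochberg over all genes tested, threshold 0.05). The 2 sums of a block come from the same library, which is where the pairing comes from. Genotype was tested only for Inv1, added after the data were seen, with the same edgeR test over the 4 Inv1 and G4 libraries and limb as a block, in mesenchyme and muscle. Splitting genes were left out of the calls. DESeq2 1.42.0, other scalings, filters, thinning to 4000 UMIs, other cell limits and leaving out each library served as alternatives. The fit was tested on simulated data. Python 3.11.15, numpy 2.4.6, scipy 1.17.1, pandas 2.3.3 and matplotlib 3.10.9 were used.

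The 10 members and 36 other pathway genes (35 with a shared row; Hes5 had none) were chosen with earlier results of these data known. All members were described, other pathway genes were counted, and those called in a split or in a mutant pair were named. For each member the 3 genes with the highest Pearson correlation of log2(CPM + 10) were named.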

Additional observations from a re-analysis of the deposited data

Results flagged for a closer look

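In muscle cells, Notch2 differed between cells with and without a Myog UMI by -0.33 on the log2 scale in the Inv1 forelimb library, against 0.09, 0.31, 0.33, 0.16 and 0.24 in the C57BL/6 wild-type hindlimb, Dup hindlimb, G4 wild-type hindlimb, Inv1 hindlimb and G4 wild-type forelimb. The Inv1 forelimb stood apart from the other 5 libraries by Dixon's 95% limit. Chance sets apart about 1 in 20 groups by this limit, and Notch2 passed no threshold in this comparison over the 6 libraries.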

How the results depend on the processing

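No paired analysis was possible because each group holds 1 library for the Dup pair. For Inv1 over both limbs, genes called with limb as a replicate block and with no replicate block were 234 and 1 in mesenchyme and 88 and 3 in muscle, with 0 members called in each. The labels name no litter or batch that libraries of 1 limb share. The cause of the changes below was not tested. With a fold of 2, members called in the 3 pairs went from 3 to 1 in dorso-ventral ectoderm, from 6 to 1 in mesenchyme and from 2 to 0 in muscle. In the AER 1 call became 0 with over 1000 or over 3000 detected genes, and 2 (Notch2 in the Inv1 hindlimb, Hes1 in the forelimb, there reversed to 0.539 times) with the gate on AER markers. Scaling by the median of ratios left 1 of the 3 in dorso-ventral ectoderm, at least 30 UMIs left 1 of the 3 in endothelium, and leaving out cells with mesenchyme markers gave 4 in place of 2 in muscle.

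For Myog, genes called fell from 2135 to 1005 with DESeq2, 915 after thinning, 1039 in the 3 wild types and 746 with no library block, members called rose from 2 to 4 with no filter, and Hes1 reversed to 0.05 (adjusted p = 0.839, edgeR) in the 3 wild types. Along the limb, genes called fell from 5111 to 3403 after thinning and 1715 with no library block, and members from 5 to 3, which lost Notch1 (-0.22) and Hes1 (0.42). For Sox9, genes called fell from 5394 to 3565 with DESeq2, 3498 in the 3 wild types and 440 with no library block, and members from 4 to 2, which lost Notch1 (0.76) and Notch2 (0.31). Leaving out each library gave 1516 to 2110, 3915 to 5221 and 4538 to 5267 genes called in the 3 splits. Dll1 with Myog ranged from 3.72 to 5.06 and Hey1 from -1.33 to -0.85 on the log2 scale, Hey1 not being tested after thinning.

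Depth limits the small classes most. With 10 to 95 AER or ectoderm cells a library, few members reached 10 UMIs, and the intervals there are wide.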

Other observations

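Genes whose levels ran most like those of each member were sought over 25 class and library sums of at least 30 cells. The candidates were the 5793 genes that reached 50 CPM in at least 1 sum, compared by Pearson's r of log2(CPM + 10). The sums share libraries and most lie in few classes, so the values are a description. Dll4 ran closest to Clec1a (r = 0.996), Kcne3 (0.995) and Apln (0.995), and Jag2 to Txndc17 (0.966), Phlda3 (0.933) and Ctsl (0.930). Notch1 ran closest to Akap12 (0.913), Tnfaip2 (0.909) and Tspan15 (0.898), and Heyl to Smtnl2 (0.916), Pvrl3 (0.855) and Rnf149 (0.805). Dll1 ran closest to Fam178a (0.845), Sytl2 (0.826) and Lbx1 (0.815), the last being a muscle precursor gene of the rearranged locus. Notch2 ran closest to Zcchc11 (0.881), Ldhb (0.880) and Cited2 (0.876), and Notch3 to Pdlim4 (0.870), Ncam1 (0.856) and Eya4 (0.828). Hey1 ran closest to Marcks (0.857), Ccne2 (0.844) and Snai1 (0.833), Jag1 to Emp2 (0.828), Plcd1 (0.821) and Hbp1 (0.802), and Hes1 to Tubb2b (0.791), Pdcd5 (0.754) and Pvrl3 (0.742). Dll1, Hey1 and Heyl did not reach 50 CPM in any of these sums, so they could not be listed as neighbours. None of the other members was among the 3 nearest genes of another.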
